A study of Mus musculus with 6 samples.

Results

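The heavy chain, kappa chain and lambda chain repertoires of naïve follicular (FO) B cells from the B6 mouse were compared with each other, using every row of the clonotype tables of its 3 libraries. These libraries held 8519 of the 18182 clonotypes in the 6 libraries of the series, 6781 of the heavy chain, 1696 of the kappa chain and 42 of the lambda chain. Each clonotype stands for 1 CDR3 nucleotide sequence, the loop encoded where the gene segments are joined, with its best aligned V, D, J and C genes. The B6 mouse was 1 wild-type C57BL/6 animal that served as the untreated control, and its age and sex are not given in the sources used here. From its spleen, 100000 cells were sorted by a gate that included IgD++IgM+CD23++CD21+ and the absence of T cell, myeloid, erythroid, NK cell and plasma cell markers. The other 3 libraries came from the same gate of 1 iB-μMT mouse, 4 weeks after transplantation. A μMT mouse has no mature B cells of its own, and this irradiated recipient carried B cells grown from hematopoietic progenitors of an embryonic stem cell line (C57BL/6 background) with an inducible cassette of Runx1, Hoxa9 and Lhx2. Its libraries are used here only to find clonotypes present in both mice.

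Each B cell assembles its receptor genes by V(D)J recombination, in which the RAG proteins cut beside the gene segments and the opened ends are trimmed by nucleases and joined. Opening of the hairpin ends can leave short palindromic stretches (P nucleotides), and terminal deoxynucleotidyl transferase (TdT) adds untemplated, G- and C-rich N nucleotides. The heavy chain is joined first, in pro-B cells, from V, D and J segments and has a V-D and a D-J junction, whereas a light chain is joined later, in pre-B cells, where TdT is low, and has a single V-J junction. In mice most B cells carry a kappa light chain, and the lambda locus has few V segments.

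The libraries held 1383617 heavy chain reads, 534314 kappa chain reads and 271108 lambda chain reads, and every listed CDR3 was in frame. Whether out-of-frame sequences were removed upstream was not tested, so all values below cover in-frame clonotypes only. Reads were amplified without described molecular identifiers, so they are not independent molecules, and the reads of a clonotype do not separate more cells from more RNA per cell. With 1 library per chain from 1 mouse there was no replicate. SDs and quartiles below are therefore spreads over clonotypes, 95% Wilson intervals cover counting error only, and Fisher's exact tests compare these libraries and not chains in general. The C genes were those of IgM, although the protocol in the labels calls the heavy chain library IgG. IGHM, the constant gene of IgM, was found for 6684 heavy chain clonotypes (99.9% of reads), IGHG1, a switched isotype, for 4 clonotypes (0.0549% of reads), and no C gene for 93. No clonotype was listed with IGHD, so the IgD level that defined the gate could not be checked.

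The CDR3 sequences of the largest clonotypes give examples of the difference between the chains. They are written from the first base of the conserved cysteine codon to the last base of the conserved phenylalanine or tryptophan codon, 5′ to 3′, in lower case, with inserted nucleotides in capitals. Inserted nucleotides are those between the aligned ends of the gene segments. The 3 largest clonotypes of each chain were the following.
heavy chain IGHV1-49, IGHD1-1, IGHJ2: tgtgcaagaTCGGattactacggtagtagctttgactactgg
heavy chain IGHV1-26, IGHD2-7, IGHJ2: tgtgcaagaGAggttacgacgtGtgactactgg
heavy chain IGHV1-52, IGHD1-1, IGHJ1: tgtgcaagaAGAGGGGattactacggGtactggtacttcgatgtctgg
kappa chain IGKV6-15, IGKJ5: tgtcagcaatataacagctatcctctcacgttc
kappa chain IGKV6-15, IGKJ2: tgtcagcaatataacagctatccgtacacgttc
kappa chain IGKV10-96, IGKJ1: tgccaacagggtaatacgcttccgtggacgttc
lambda chain IGLV1, IGLJ1: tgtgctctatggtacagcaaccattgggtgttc
lambda chain IGLV2, IGLJ2: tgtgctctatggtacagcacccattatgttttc
lambda chain IGLV1, IGLJ1: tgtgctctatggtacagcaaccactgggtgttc
The heavy chain clonotypes had 4, 3 and 8 inserted nucleotides over their junctions and lengths of 42, 33 and 48 nucleotides. None of the 6 light chain clonotypes had an inserted nucleotide, and each was 33 nucleotides long. They made up 2.49%, 2.42% and 2.20% of the kappa chain reads and 36.1%, 16.4% and 10.2% of the lambda chain reads, against 0.113%, 0.0919% and 0.0818% for the heavy chain. All 6 light chain sequences were also found in the iB-μMT mouse with the same V and J gene. None of the 3 heavy chain sequences was. Over all clonotypes the shares found in both mice were 0.501% in the heavy, 52.7% in the kappa and 66.7% in the lambda chain. In the kappa chain the share was 97.1% of the largest 170 clonotypes and 3.55% of the smallest 169. The printed sequences were picked by size, so they do not stand for their chains in this respect.

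The heavy chain had the most clonotypes and the most even distribution of reads. It held 4.00 times as many clonotypes as the kappa chain and 161 times as many as the lambda chain, and the kappa chain held 40.4 times as many as the lambda chain. Without clonotypes found in both mice the heavy chain held 8.41 and 482 times as many. Read depth differed less than clonotype number: at the lambda chain depth of 271108 reads, 6369 heavy chain and 1625 kappa chain clonotypes were expected. At 1000 reads the expected numbers were 893, 354 and 29.1. Per 100 sorted cells there were 6.78 heavy chain, 1.70 kappa chain and 0.042 lambda chain clonotypes.

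**Figure D1:**
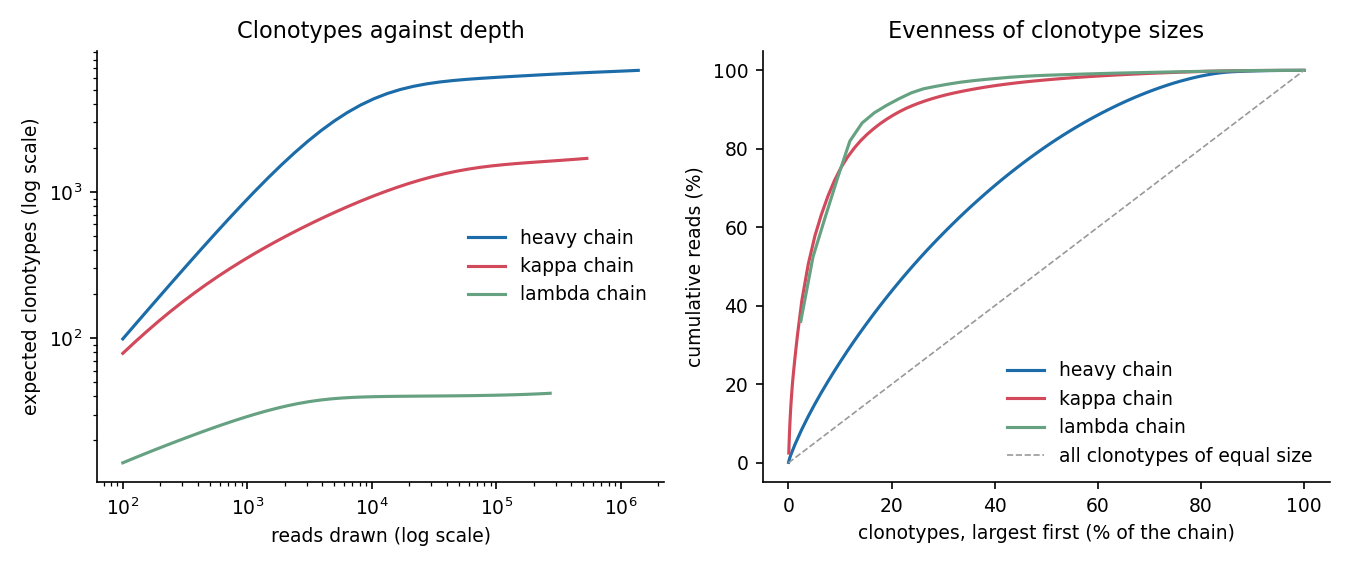
The left panel plots the expected number of clonotypes (y axis, log scale) against the number of reads drawn from each library (x axis, log scale), and the right panel plots the cumulative share of reads (%) against the share of clonotypes (%), taken from the largest down. The heavy chain curve lies above the others on the left, ending at 6781 clonotypes, and on the right it lies nearest to the dashed line of equal sizes, while the kappa and lambda chain curves bend far from it.

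Pielou's index, which is 1 when all clonotypes hold equal reads, was 0.964 for the heavy chain, 0.784 for the kappa chain and 0.568 for the lambda chain. Without clonotypes found in both mice it was 0.964, 0.809 and 0.842, so the order of the kappa and lambda chains turned, with 14 lambda chain clonotypes left. The effective number of clonotypes, the number of equal clonotypes with the same Shannon entropy, was 4915 for the heavy chain, 342 for the kappa chain and 8.35 for the lambda chain. That was 72.5%, 20.1% and 19.9% of the clonotypes found, nearly the same share in the kappa and lambda chains although their numbers differed widely. The median and quartiles of clonotype size did not follow the same order. Reads per clonotype had a median of 184 (quartiles 81 and 300) in the heavy chain, 37 (15 and 157) in the kappa chain and 320.5 (172.75 and 2537.5) in the lambda chain. The largest clonotype had 1558 heavy chain reads, 13285 kappa chain reads or 97736 lambda chain reads. The largest 1628 heavy chain clonotypes were needed to reach 50% of reads, against 64 kappa chain clonotypes and 2 lambda chain clonotypes.

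The number of V genes did not separate the heavy from the kappa chain. V genes numbered 104 from 15 families in the heavy chain and 98 from 19 families in the kappa chain, and 3 in the lambda chain. The V and J genes formed 370 of 416 possible pairs in the heavy chain, 352 of 392 in the kappa chain and 7 of 9 in the lambda chain. A heavy chain pair held a median of 11.5 clonotypes (at most 92) and a kappa chain pair a median of 4 (at most 21). The effective number of pairs by reads was 209 for the heavy chain, 142 for the kappa chain and 2.67 for the lambda chain. Dividing the effective number of clonotypes by it gave 23.5 heavy chain, 2.41 kappa chain and 3.12 lambda chain clonotypes per effective pair. The largest clonotype of each pair together held 11.7% of heavy chain reads, 69.1% of kappa chain reads and 64.5% of lambda chain reads. The heavy and kappa chains thus differed more within V-J pairs than in the number of pairs.

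Distinct kappa chain sequences also shared their CDR3 amino acids more often. The 6781 heavy chain clonotypes gave 6730 distinct amino acid sequences of CDR3 (99.2%), the 1696 kappa chain clonotypes gave 1304 (76.9%), and the 42 lambda chain clonotypes gave 38 (90.5%). No nucleotide sequence of CDR3 occurred more than once in a table. Counted with their V and J genes, 6770 heavy chain (99.8%), 1474 kappa chain (86.9%) and 38 lambda chain (90.5%) amino acid sequences were distinct. A nucleotide sequence shared by several V genes would appear once in a table, and its part in the ratio of heavy to kappa chain clonotypes was not tested.

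The V genes with the most reads differed in how their reads were spread. IGHV1-26 (chr12:114788372-114788665 in GRCm38.p6) led the heavy chain with 6.05% of reads in 311 clonotypes, followed by IGHV3-6 (4.20%, 232 clonotypes), IGHV1-62-3 (4.17%, 201), IGHV1-64 (4.00%, 258) and IGHV1-15 (3.60%, 166). The largest clonotype of each of these genes held between 1.33% and 2.00% of the gene's reads. IGKV17-121 (chr6:68036818-68037318) and IGKV6-15 (chr6:70406469-70406992) led the kappa chain with 8.30% and 8.29% of reads in 54 and 43 clonotypes. IGKV10-96, IGKV6-23 and IGKV6-17 followed with 6.26%, 5.59% and 3.94%. The largest clonotype of these 5 kappa genes held between 21.3% and 35.2% of the gene's reads, more than 10 times the highest value among the 5 leading heavy chain genes. Of the lambda genes, IGLV1 (chr16:19085017-19085460) had 69.8% of reads in 21 clonotypes, IGLV2 19.8% in 10 and IGLV3 10.4% in 11. The largest clonotype held 51.6%, 83.1% and 90.4% of their reads, respectively. Each IGLJ gene was found with the IGLC gene of the same number, J1 with C1 in 18 clonotypes, J2 with C2 in 16 and J3 with C3 in 8. Within the lambda locus each J lies beside its own C gene.

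CDR3 length was widely spread in the heavy chain and narrow in the kappa chain. The mean was 13.95 ± 2.71 amino acids (SD over clonotypes, n = 6781) for the heavy chain, 10.95 ± 0.985 (n = 1696) for the kappa chain and 11.98 ± 2.01 (n = 42) for the lambda chain. Lengths ran from 6 to 24 in the heavy chain, from 7 to 26 in the kappa chain and from 8 to 17 in the lambda chain. The kappa chain length of 26 came from 1 clonotype with 3 reads, and the next longest had 16 amino acids. The most frequent length was 14 in the heavy chain and 11 in both light chains. It held 15.9% of heavy chain clonotypes, 52.2% of kappa chain clonotypes and 40.5% of lambda chain clonotypes. The heavy chain share was lower than the kappa chain share by 36.3 percentage points (interval of the difference 33.8 to 38.8; Fisher's exact test, two-sided, adjusted p = 2.37e-194). It was lower than the lambda chain share by 24.5 points (interval 11.1 to 39.6, Fisher's exact test, adjusted p = 0.000241), but heavy minus lambda was -5.54 points without clonotypes found in both mice (Fisher's exact test, adjusted p = 0.674), which ended the call. The kappa and lambda chain shares differed by 11.8 points, with an interval from -3.45 to 25.4 that includes 0 (Fisher's exact test, adjusted p = 0.191).

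**Figure D2:**
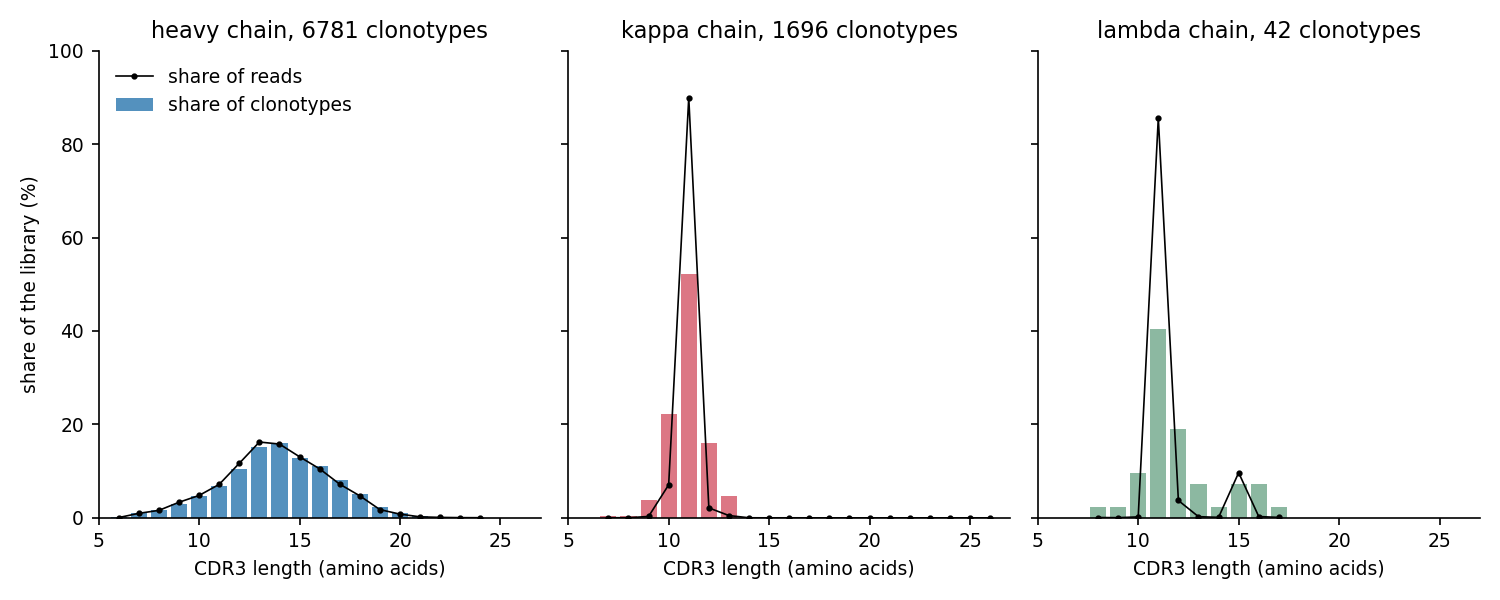
CDR3 length in amino acids (x axis) against the share of the library in % (y axis), with bars for the share of clonotypes and black points for the share of reads, 1 panel per chain. Bars and points nearly coincide in the heavy chain, whereas in the kappa chain 52.2% of clonotypes and 89.97% of reads lie at 11 amino acids, and the lambda chain has a smaller peak of reads at 15.

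Weighting by reads left the heavy chain nearly as it was and narrowed the light chains. The modal length held 15.8% of heavy chain reads, 89.97% of kappa chain reads and 85.6% of lambda chain reads, and the SD of length became 2.61, 0.361 and 1.23 amino acids. The source of the spread also differed by chain. Differences between V genes held 6.71% of the variance of length over heavy chain clonotypes, 14.5% over kappa chain clonotypes and 73.4% over lambda chain clonotypes. These shares were not corrected for the number of V genes. Fewer clonotypes per V gene, as in the kappa against the heavy chain, raise such a share. The SD within V genes, which allows for their number, was 2.63, 0.938 and 1.06 amino acids in the heavy, kappa and lambda chains. IGLV3 stood apart in the lambda chain, with a mean of 14.8 ± 1.40 amino acids (SD, n = 11) and no clonotype under 13, against 10.9 ± 1.01 (n = 21) for IGLV1 and 11.2 ± 0.632 (n = 10) for IGLV2, none over 12. Without IGLV3 the lambda chain SD was 0.912, close to the kappa chain value, and the kappa minus lambda difference at the modal length was -2.60 points, an alternative chosen after seeing the data. J genes held 10.9% of the variance in the heavy chain. The mean was 15.1 ± 2.39 amino acids with IGHJ1 and 14.9 ± 2.66 with IGHJ4, against 13.02 ± 2.57 with IGHJ2 and 13.4 ± 2.51 with IGHJ3. The kappa chain means by J gene ran only from 10.9 to 11.1.

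The D segment added to the spread of the heavy chain. Over the 5948 heavy chain clonotypes with a D hit, the aligned V, D, J and inserted parts measured 8.75 ± 1.70, 11.02 ± 4.38, 17.05 ± 5.01 and 6.36 ± 3.86 nucleotides (SD). In the kappa chain the V part had an SD of 3.07 and the J part of 2.42 nucleotides. IGHD1-1, the D gene with the most clonotypes (2030, 29.9%), gave 12.98 nucleotides of D on average and a CDR3 of 15.3 ± 2.47 amino acids. IGHD4-1, the D gene nearest to the J segments, gave 7.65 nucleotides of D in 581 clonotypes and a CDR3 of 12.8 ± 1.96. IGHD2-4, IGHD2-3 and IGHD2-5, with 877, 673 and 425 clonotypes, lay between them at 14.5 ± 2.32, 14.03 ± 2.21 and 14.5 ± 2.22.

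Inserted nucleotides were common at both heavy chain junctions and rare in the light chains. The mean was 4.01 ± 3.003 nucleotides at the V-D junction and 2.36 ± 2.51 at the D-J junction of the heavy chain (SD, n = 5948 each), 0.590 ± 2.35 at the kappa chain V-J junction (n = 1696) and 0.643 ± 1.79 at the lambda chain V-J junction (n = 42). No nucleotide was inserted in 11.3% of V-D junctions (interval 10.5 to 12.1), 28.8% of D-J junctions (27.7 to 29.98), 80.5% of kappa chain junctions (78.5 to 82.3) and 78.6% of lambda chain junctions (64.1 to 88.3). The V-D junction lay 69.2 points below the kappa chain (interval 67.1 to 71.2), and the D-J junction 51.7 points below it (interval 49.4 to 53.8), with p-values of Fisher's exact test too small for the software to return. Against the lambda chain the differences were 67.3 points (interval 52.7 to 77.0, Fisher's exact test, adjusted p = 5.20e-23) and 49.8 points (35.2 to 59.5, adjusted p = 9.94e-11). The kappa and lambda chains differed by 1.91 points, with an interval from -8.01 to 16.5 (Fisher's exact test, adjusted p = 0.728).

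**Figure D3:**
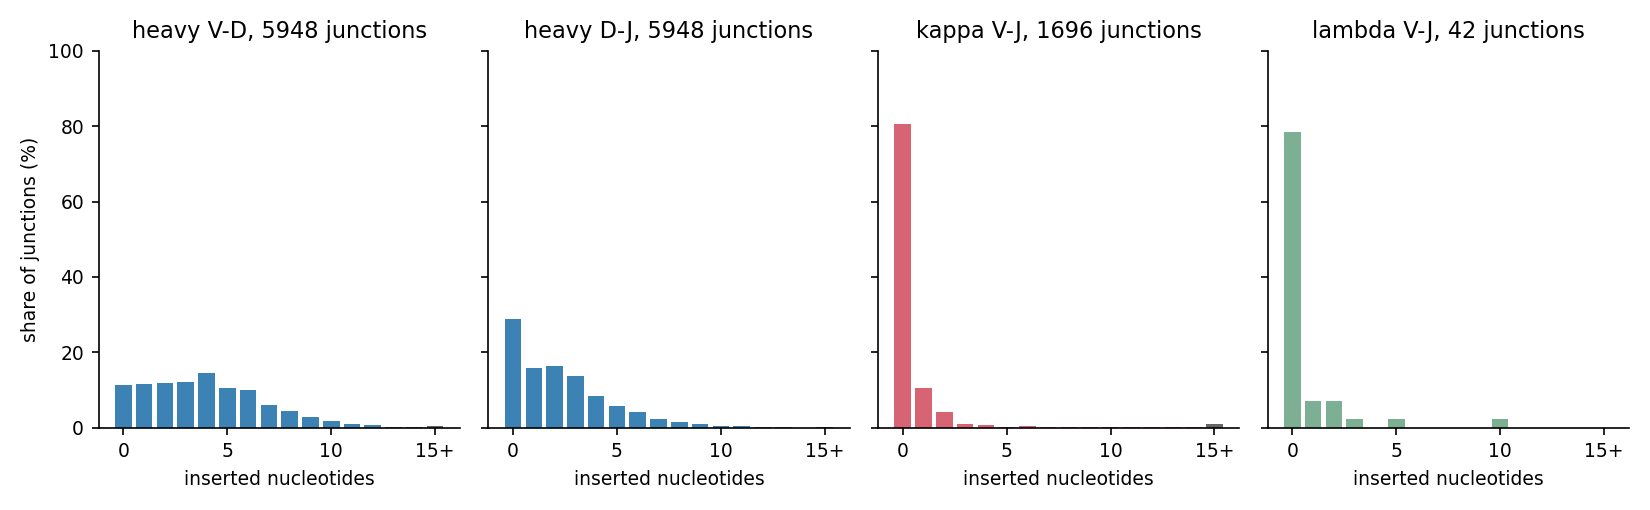
Share of junctions in % (y axis) by the number of inserted nucleotides (x axis), 1 panel per junction, with 15 or more collected in the last, grey bar. The bar at 0 holds 11.3% and 28.8% of the heavy chain V-D and D-J junctions and 80.5% and 78.6% of the kappa and lambda chain V-J junctions.

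The V-D junction also received more nucleotides than the D-J junction of the same clonotypes. Only the D-J junction lacked an insertion in 1548 clonotypes and only the V-D junction in 506, while 3728 (62.7%) had insertions at both and 166 (2.79%) at neither. The shares without an insertion differed by 17.5 points (Fisher's exact test, which treats the junctions as separate, adjusted p = 2.05e-128). McNemar's exact test on the 1548 and 506 clonotypes, which pairs the junctions and was added after seeing the data, gave p = 3.04e-122. The difference V-D minus D-J was -8.81 points in clonotypes whose alignments held no mismatch and -4.30 points with P nucleotides counted as inserted. Another 833 heavy chain clonotypes (12.3%) had no D hit and were left out, and they had 6.50 ± 3.86 nucleotides (SD) between V and J. The largest heavy chain clonotype without any inserted nucleotide had 915 reads and joined IGHV1-69, IGHD4-1 and IGHJ4.
heavy chain without insertion: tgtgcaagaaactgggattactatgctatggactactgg
Among the 5 leading heavy chain V genes the mean over both junctions ran from 5.65 (IGHV3-6) to 6.73 (IGHV1-62-3) nucleotides, and among the 4 J genes from 5.87 (IGHJ1) to 6.66 (IGHJ4). The differences between these genes were not tested. In the heavy chain, 68.6% of the bases inserted at V-D junctions and 67.6% of those at D-J junctions were G or C, against 49.2% over whole CDR3 sequences. The kappa chain value was 50.2% over 1000 inserted bases (interval 47.1 to 53.3), against 47.4% over whole kappa chain CDR3 sequences, and the lambda chain value was 37.0% over 27 bases (interval 21.5 to 55.8).

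The kappa chain insertions were short, and part of the longer ones recurred within a V gene. Of the 331 kappa chain clonotypes with an insertion, 271 had 1 to 3 inserted nucleotides, 35 had 4 to 9 and 25 had 10 or more. The share of G or C was 56.0% in insertions of 1 to 3 (interval 51.0 to 60.9), 55.1% in those of 4 to 9 (48.3 to 61.7) and 42.3% in those of 10 or more (37.7 to 47.2), so only the last lay below the value over all kappa chain insertions. These 25 clonotypes held 0.175% of reads but 41.1% of the inserted bases, and their V ends were trimmed by a median of 17 nucleotides, against 1 in the clonotypes with 1 to 3. Of the 60 clonotypes with 4 or more, 29 shared their first 4 inserted bases with another clonotype of the same V gene and a different J gene. IGKV4-57-1 had 12 of them and IGKV14-126 had 9. The largest kappa chain clonotypes with an insertion of 1 to 3 and of 4 or more nucleotides are shown with the insertion in capitals.
IGKV10-96, IGKJ1, 3668 reads: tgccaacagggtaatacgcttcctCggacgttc
IGKV4-57-1, IGKJ5, 1320 reads: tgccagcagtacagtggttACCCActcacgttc
The reference used for IGKV4-57-1 reached only 19 nucleotides into CDR3, the shortest of the kappa chain, and 19 of its 20 clonotypes carried an insertion. For the 14 kappa V genes whose reference reached under 25 nucleotides into CDR3, IGKV10-96 included, 65.9% of 302 clonotypes had no insertion, against 83.6% of 1394 for the other 84 genes. Behind an untrimmed V end, the first inserted base was C in 60 of 84 such clonotypes of the former genes and in 3 of 66 of the latter. Whether these bases belong to the germline V segments was not tested. The kappa chain share without an insertion was 81.7% when IGKV4-57-1 and IGKV14-126 were left out, and the mean fell from 0.590 to 0.458 nucleotides, an alternative chosen after seeing the data.
The longest kappa chain CDR3, chosen after its value was seen, had 3 reads and 47 nucleotides between the aligned V and J ends, counted as inserted. Only the last part of these 47 nucleotides resembles the opening bases of this CDR3, with mismatches. Whether the 47 nucleotides belong to another V segment was not tested.
IGKV8-30, IGKJ5, 3 reads: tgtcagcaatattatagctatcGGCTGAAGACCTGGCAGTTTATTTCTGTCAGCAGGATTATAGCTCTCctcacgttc
In the lambda chain 9 of 42 clonotypes had an insertion. The largest of them had 474 reads, joined IGLV3 and IGLJ2 and held a stop codon, and the largest with 4 or more inserted nucleotides had 160 reads.
IGLV3, IGLJ2, 474 reads: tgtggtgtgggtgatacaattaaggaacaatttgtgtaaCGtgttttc
IGLV2, IGLJ2, 160 reads: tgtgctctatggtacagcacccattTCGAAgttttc

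Kappa chain clonotypes without an insertion were also the larger ones, which was not so in the heavy chain. The median was 44 reads without and 19 reads with an insertion in the kappa chain, 753 and 168 reads in the lambda chain, and 191.5 and 183 reads in the heavy chain (both junctions together). Among the largest 170 kappa chain clonotypes, which held 74.8% of reads, 97.6% had no insertion and 93.5% had the modal length. Among the smallest 169, with 1 to 3 reads each, 57.4% had no insertion and 46.7% had the modal length. In the heavy chain 4.20% of the largest 595 and 3.70% of the smallest 594 clonotypes with a D hit lacked insertions at both junctions. By reads, 95.1% of the kappa chain and 99.4% of the lambda chain had no insertion, against 11.97% and 28.7% at the heavy chain junctions.

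**Figure D4:**
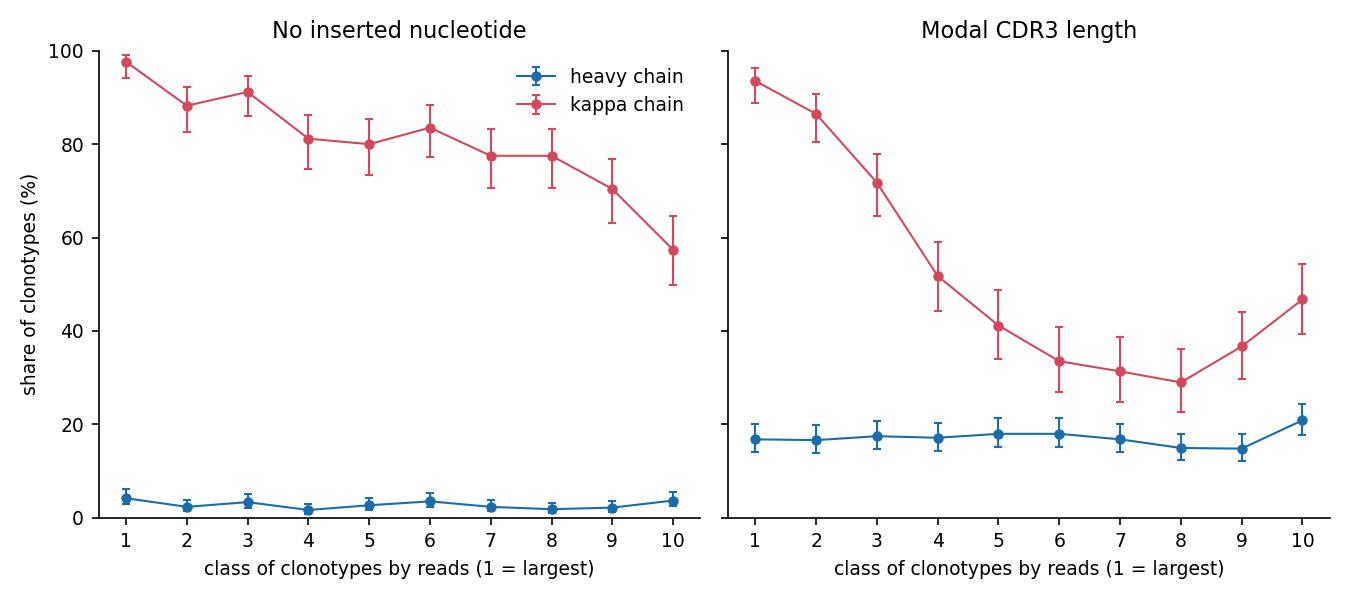
Share of clonotypes in % without an inserted nucleotide (left) and at the modal CDR3 length (right), in 10 equal classes of clonotypes by reads (x axis, 1 is the largest), with bars for 95% Wilson intervals. In the kappa chain the share without an insertion is 97.6% in the largest class and 57.4% in the smallest, while the heavy chain values stay between 1.68% and 4.20%.

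The same contrast appeared in the clonotypes found in both mice, with the same CDR3 nucleotides, V gene and J gene. They were 34 of the heavy chain (0.501%), 894 of the kappa chain (52.7%) and 28 of the lambda chain (66.7%), and they held 0.392%, 93.5% and 98.6% of reads. The heavy chain lay 52.2 points below the kappa chain (interval 49.8 to 54.6), and 66.2 points below the lambda chain (interval 51.0 to 78.5, Fisher's exact test, adjusted p = 8.50e-50). The kappa and lambda chain shares differed by 13.95 points, with an interval from -26.5 to 1.34 for kappa minus lambda (Fisher's exact test, adjusted p = 0.12). In the kappa chain 90.4% of the clonotypes found in both mice had no insertion, against 69.5% of those found in the B6 mouse only, and their length SD was 0.719 against 1.21 amino acids. The libraries of both mice were made in the same study, and exchange of reads between them was not tested.

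V ends were trimmed less in the heavy chain and J ends were trimmed less in the light chains. Trimming is the number of bases missing from the end of the aligned gene. At the 3′ end of V, the mean was 0.693 ± 1.36 nucleotides in the heavy chain, 2.65 ± 2.91 in the kappa chain and 2.69 ± 2.96 in the lambda chain (SD over clonotypes, n = 6781, 1696 and 42). The V end was untrimmed in 70.4% of heavy chain, 28.5% of kappa chain and 28.6% of lambda chain clonotypes. The heavy chain share was higher than the kappa chain share by 41.95 points (interval 39.5 to 44.3, Fisher's exact test, adjusted p = 3.34e-217), and higher than the lambda chain share by 41.9 points (interval 26.8 to 53.3, adjusted p = 5.85e-08). Kappa and lambda chains differed by -0.0927 points (interval -15.2 to 11.5, Fisher's exact test, adjusted p = 1). Kappa chain V ends had a second peak at 3 removed nucleotides, with 392 clonotypes (23.1%), which heavy chain V ends lacked (4.01%). The V references reached a median of 9 nucleotides into CDR3 in the heavy chain and 26 in the kappa chain, so fewer bases could be seen to be lost in the heavy chain. The part of this in the difference was not tested.

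**Figure D5:**
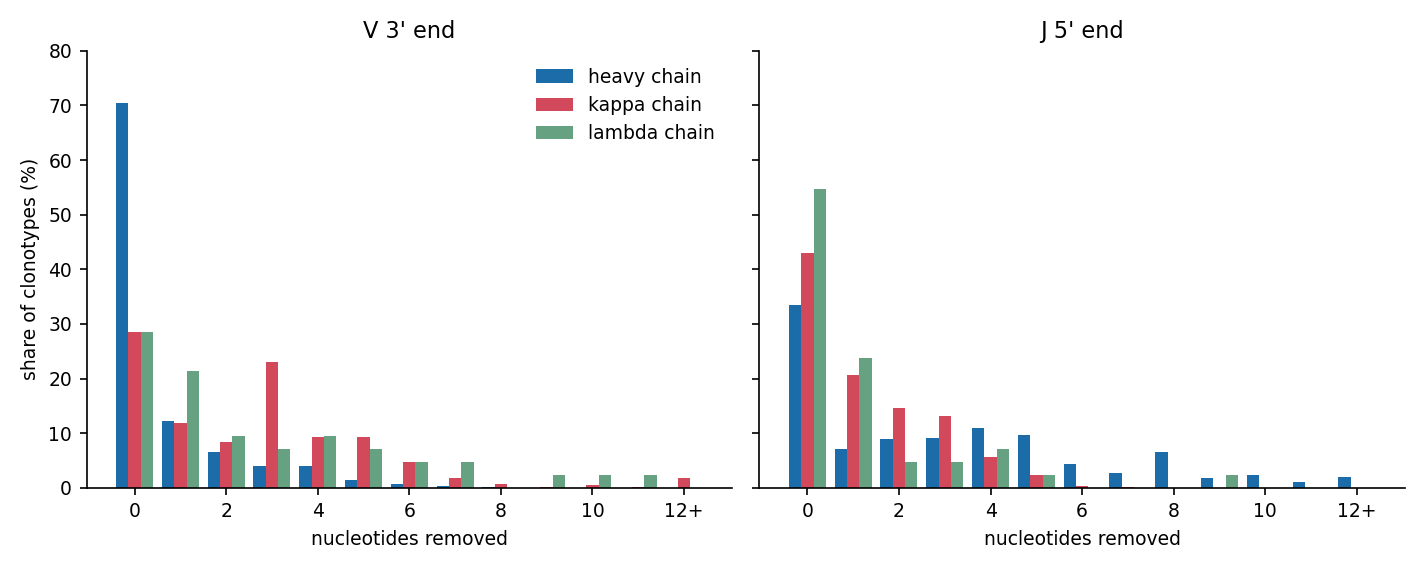
Share of clonotypes in % (y axis) by the number of nucleotides removed (x axis, 12 or more collected in the last position) at the 3′ end of V (left) and the 5′ end of J (right), with bars for the 3 chains. At the V end the heavy chain has 70.4% at 0 and the kappa chain a second peak of 23.1% at 3, while at the J end 33.4%, 43.0% and 54.8% of heavy, kappa and lambda chain clonotypes are at 0.

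At the 5′ end of J the order was the opposite. The mean was 3.21 ± 3.34 nucleotides in the heavy chain, 1.28 ± 1.45 in the kappa chain and 1.10 ± 1.85 in the lambda chain. The J end was untrimmed in 33.4% of heavy chain clonotypes, 9.63 points fewer than the 43.0% of the kappa chain (interval 7.03 to 12.2, Fisher's exact test, adjusted p = 5.74e-13). It was 21.3 points below the 54.8% of the lambda chain (interval 6.49 to 35.4, Fisher's exact test, adjusted p = 0.00845). That call was lost without clonotypes found in both mice (heavy minus lambda -16.6 points, Fisher's exact test, adjusted p = 0.501), and weighted by reads the difference was -4.54 points. Kappa and lambda chains differed by 11.7 points, with an interval from -25.9 to 3.28 for kappa minus lambda (Fisher's exact test, adjusted p = 0.191), and kappa minus lambda was 10.2 points when weighted by reads. More than 5 nucleotides were missing in 20.9% of heavy chain J ends, 0.590% of kappa chain J ends and 2.38% of lambda chain J ends. The aligned J part of CDR3 averaged 17.05 nucleotides in heavy chain clonotypes with a D hit. It averaged 9.65 in the kappa and 10.02 in the lambda chain, so fewer bases could be seen to be lost there. The part of this in the difference between the J ends of the chains was not tested. As counted, V and J trimming together came to nearly the same mean in every chain. It was 3.90 ± 3.62 nucleotides in the heavy chain, 3.93 ± 3.02 in the kappa chain and 3.79 ± 2.93 in the lambda chain. Overlaps of V and J, where trimming is a lower bound, averaged 0.679 nucleotides in the kappa and 1.69 in the lambda chain. The heavy chain V references reached a median of only 9 nucleotides into CDR3. The part of these limits in the sums was not tested. The heavy chain lost further bases at its D segment. Over the 3756 clonotypes whose D alignment lay within the D gene, 4.33 ± 2.84 nucleotides were missing at the 5′ end of D and 4.44 ± 3.68 at the 3′ end. Another 1805 D alignments (30.3%) ran past the gene into its flanking reverse complement and were left out of these values. They lacked 4.05 ± 4.00 nucleotides at the 5′ end and 1.70 ± 4.15 at the 3′ end. Their 3′ end was untrimmed in 78.7%, against 14.2% within the gene. J ends that ran past the gene were kept as untrimmed, so D and J values are not on the same measure.

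Trimming varied between gene segments of a chain. Among the leading heavy chain V genes the untrimmed share was 40.5% for IGHV3-6, against 68.1% to 82.6% for the other 4. For the leading kappa chain genes it ran from 17.02% (IGKV6-23) to 41.7% (IGKV10-96). IGHJ4 was untrimmed in 19.4% of clonotypes and lost 4.15 nucleotides on average, and IGHJ1, IGHJ2 and IGHJ3 were untrimmed in 39.6%, 39.6% and 36.5%. In the kappa chain IGKJ4 was untrimmed in 66.02% and IGKJ2 in 32.2%, with IGKJ1 and IGKJ5 at 41.6% and 42.6%. The range between J genes of a chain was thus wider than the difference between the heavy and kappa chains.

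In light chains the alignments to V and J often covered the same bases. The aligned V and J ends overlapped in 618 kappa chain clonotypes (36.4%) and 25 lambda chain clonotypes (59.5%), and they met without a gap or overlap in 747 (44.0%) and 8 (19.0%). Where an overlap lies within both genes its bases cannot be assigned to either, so trimming of V or J is a lower bound there. In 360 kappa and 11 lambda chain clonotypes the overlap reached past the J gene into its palindromic extension (P nucleotides). The pairs IGKV17-121 with IGKJ5 and IGLV1 with IGLJ1 had the most reads in their chains, 4.36% and 66.9%. Their 5 largest clonotypes are printed with the overlap in capitals.
IGKV17-121, IGKJ5, 9433 reads: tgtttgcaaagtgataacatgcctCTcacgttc
IGKV17-121, IGKJ5, 7502 reads: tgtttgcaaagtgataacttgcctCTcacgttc
IGKV17-121, IGKJ5, 3659 reads: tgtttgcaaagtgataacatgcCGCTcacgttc
IGKV17-121, IGKJ5, 2202 reads: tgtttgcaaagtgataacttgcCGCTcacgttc
IGKV17-121, IGKJ5, 196 reads: tgtttgcaaagtgataacttGCtcacgttc
IGLV1, IGLJ1, 97736 reads: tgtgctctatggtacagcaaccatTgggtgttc
IGLV1, IGLJ1, 27575 reads: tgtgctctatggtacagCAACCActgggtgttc
IGLV1, IGLJ1, 26923 reads: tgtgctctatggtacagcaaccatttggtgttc
IGLV1, IGLJ1, 12495 reads: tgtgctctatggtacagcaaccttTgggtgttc
IGLV1, IGLJ1, 7077 reads: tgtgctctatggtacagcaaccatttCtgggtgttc
The first 4 kappa chain sequences had 33 nucleotides and the fifth had 30. The alignment to IGKV17-121 held 1, 0, 2, 1 and 0 mismatches in these 5 sequences. In the IGLV1 clonotype with 27575 reads, the J alignment ran 7 bases past IGLJ1 with 2 mismatches, so its capitals lay in that extension. Alignments crossed mismatches at the V end in 16.98% of kappa chain, 14.3% of lambda chain and 2.09% of heavy chain clonotypes, and at the J end in 6.01%, 16.7% and 21.6%. A mismatch can come from a related V gene, an allele, a mutation or a read error, which were not told apart. In the 5213 heavy, 1323 kappa and 29 lambda chain clonotypes without a mismatch, an alternative chosen after seeing the data, every tested difference between chains in modal length, insertions and untrimmed ends kept its direction and its side of the 0.05 threshold. The difference in untrimmed J ends, heavy minus kappa, was then -19.7 points, against -9.63 points over all clonotypes.

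The J alignment ran past the end of the gene into its palindromic extension, read as P nucleotides, in 24.1% of heavy chain, 30.96% of kappa chain and 40.5% of lambda chain clonotypes. The heavy chain share was lower than the kappa chain share by 6.81 points (interval 4.42 to 9.27, Fisher's exact test, adjusted p = 3.04e-08), and lower than the lambda chain share by 16.3 points (interval 2.86 to 31.4, adjusted p = 0.0276). This direction turned when clonotypes whose V alignment also covered the J end, 27 heavy, 360 kappa and 11 lambda chain clonotypes, were not counted. The shares were then 23.7% in the heavy, 9.73% in the kappa and 14.3% in the lambda chain, so the direction rested on how such ends were counted. The rule looks at V alignments only, which a D segment separates from J in the heavy chain. It therefore cannot decide which direction holds. Stretches of 3 or more were read in 839 heavy, 160 kappa and 8 lambda chain clonotypes, and up to 20 bases long. The V side listed none in any chain.

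A stop codon lay in the CDR3 of 150 heavy chain clonotypes (2.21%), 21 kappa chain clonotypes (1.24%) and 2 lambda chain clonotypes (4.76%). The heavy chain exceeded the kappa chain by 0.974 points (interval 0.250 to 1.54, Fisher's exact test, adjusted p = 0.0144). The difference was 0.417 points among clonotypes with at least 10 reads (Fisher's exact test, adjusted p = 0.199), 0.681 at equal reads (0.08) and 0.143 after merging near-identical clonotypes (0.723). It turned to -0.395 without clonotypes found in both mice (0.674), so it did not hold up. Of all 24 tests between chains or junctions, 16 passed at an adjusted p of 0.05, and none of the comparisons of the kappa with the lambda chain did.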

How the data were processed

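The authors extracted total RNA from sorted naïve FO B cells, amplified cDNA by 5′ RACE and sequenced it on an Illumina MiSeq, and MiXCR assembled the clonotypes. The labels name the mouse build mm10. For each clonotype the authors deposited a read count, its fraction of all reads and, as a score, the lowest base quality within CDR3, beside CDR3, gene hits and alignments. Counts were used as deposited, without normalization, and the fraction and score entered no comparison. The members of the comparison, the gene lists and the tests were chosen with earlier results of these data known.

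Depth was 271108 to 1383617 reads, so that 3 reads were 0.000217% of the heavy, 0.000561% of the kappa and 0.00111% of the lambda chain library. Precision was set by the number of clonotypes, 42 in the lambda chain. Inserted and removed nucleotides came from the deposited positions of the gene ends. Heavy chain insertions were counted over clonotypes with a D hit. Since those positions already leave out P nucleotides, inserted nucleotides exclude them. The D reference is flanked by its reverse complement, and 387 D alignments (6.51%) lay wholly outside the D gene. For shares, two-sided Fisher's exact tests were run, with Benjamini-Hochberg adjustment over 24 tests at 0.05, with 95% Wilson intervals and 95% Newcombe intervals of differences. The V-D and D-J junctions, which share clonotypes, were also compared by McNemar's exact test (two-sided). Means, SDs and indices had no test. Expected numbers of clonotypes were computed for draws without replacement. Gene names, all of which matched, and coordinates came from the RefSeq table of GRCm38.p6.

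Named genes were the 5 V genes with the most reads in the heavy and kappa chains, all lambda V genes, the 5 D genes with the most clonotypes, and all J and C genes. Printed clonotypes were the 3 largest of each chain, the largest with 0, 1 to 3 and 4 or more inserted nucleotides, and the 5 largest of the leading V-J pair of each light chain. IGKV4-57-1, IGKV14-126 and IGKV8-30 were named after their values were seen.

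Alternatives were at least 2 or 10 reads, equal reads (1 draw), merging of clonotypes of the same V, J and length with 1 mismatch and at least 10 times fewer reads, no stop codon, no clonotypes of both mice, amino acid clonotypes, weighting by reads, D of at least 8 nucleotides, clonotypes without D, and single best hits. Another 6 were chosen after seeing the data. Python 3.11.15, NumPy 2.4.6, SciPy 1.17.1, pandas 2.3.3 and Matplotlib 3.10.9 were used, and the scripts were tested on simulated data.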

Additional observations from a re-analysis of the deposited data

How the results depend on the processing

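There were 17 alternatives, 6 of them chosen after seeing the data. Of 386 recomputed values, 352 kept their side of the threshold or, without a test, stayed within 1.5 times the reported value. These 352 include values that could not change, because alternatives that filtered a single chain left the values of the other chains as they were. Without IGLV3, for example, the SD of CDR3 length stayed at 2.71 in the heavy and 0.985 in the kappa chain. The 352 therefore overstate how many values could have moved and did not. No difference past the threshold turned sign apart from the stop codon difference of heavy minus kappa, but 11 values of kappa minus lambda, never past the threshold, did: 6 for untrimmed V ends (0.353 to 4.40), 3 for junctions without insertion (-4.24 to -0.359), 1 for modal length (-2.60 without IGLV3) and 1 for untrimmed J ends. Without clonotypes found in both mice, the ratio of clonotype numbers rose to 8.41 for heavy to kappa and 482 for heavy to lambda, and that of effective numbers to 21.8 for heavy to kappa and fell to 24.3 for kappa to lambda. The heavy minus lambda difference was then -5.54 points for modal length (adjusted p = 0.674, Fisher's exact test) and -16.6 points for untrimmed J ends (0.501), neither past the threshold, with 14 lambda chain clonotypes left. Mean inserted nucleotides were then 0.918 in the kappa and 1.36 in the lambda chain, against 0.378 (kappa) and 0.350 (lambda) with at least 10 reads, 0.350 (lambda) with at least 2 reads, and 0.915 and 1.12 with P nucleotides counted as inserted.

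Weighted by reads, they were 0.110 and 0.0123, the SD of CDR3 length was 0.361 in the kappa and 1.23 in the lambda chain, and the mean removed was 0.849 at kappa J and 1.57 at lambda V ends. The modal length differences were -74.2 (heavy minus kappa) and -69.8 points (heavy minus lambda). Junctions without insertion differed by -83.2 (V-D minus kappa), -87.4 (V-D minus lambda), -66.4 (D-J minus kappa) and -70.7 points (D-J minus lambda), and untrimmed J ends by -14.8 (heavy minus kappa), -4.54 (heavy minus lambda) and 10.2 points (kappa minus lambda). The lambda chain values rest on few clonotypes, 1 of them with 36.1% of reads. Without IGLV3 the lambda SD was 0.912.

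The stop codon difference of heavy minus kappa was 0.417, 0.681, 0.143 and -0.395 points with at least 10 reads, equal reads, merging, and without clonotypes of both mice, and kappa minus lambda was -4.43 points with at least 10 reads (Fisher's exact test, adjusted p = 0.0433). The cause of these changes was not tested. Taking P nucleotides off was not run, since the positions leave them out already. No paired analysis of the chains was possible because each had 1 library, and none could be left out.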
